A study of Mus musculus with 2 samples.

Results

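Igf1, Pdgfb, Pdgfc, Vegfa, Vegfb, Hbegf, Osm and Grn, which encode secreted growth factors, were followed across the leukocytes of brown adipose tissue (BAT), together with Igf2r, the receptor that binds and clears IGF2. These 9 genes were chosen by name from the 32285 genes counted. RNA was measured in 1 library of control and 1 library of AdipoΔ/Δ mice, both of sorted CD45+ DAPI- cells, that is, live cells bearing the common leukocyte antigen. All donors were C57Bl/6 males, given as 16 weeks old in the labels but as younger in the legends of the study, and carried AdipoQ-CreERT2 and floxed alleles of ATGL, the lipase that opens triglyceride breakdown. The AdipoΔ/Δ donors received tamoxifen during 1 week and rested for 2 weeks, whereas the controls received vehicle alone and kept the same Cre and floxed alleles. Cre was driven by the adiponectin promoter, so ATGL was lost from adipocytes and was not targeted in the leukocytes measured here. How many mice were pooled in a library is not given in the sources used here. Since each condition had a single library, the conditions could not be tested against each other. Every interval below covers counting error only, and differences between the libraries have no replicate check.

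IGF1, PDGF, VEGF, HB-EGF and oncostatin M act on receptor tyrosine kinases or gp130 receptors of neighbouring cells, and IGF1 and PDGF are best known in adipose tissue as signals to adipocyte precursors and to the mural cells that wrap vessels. VEGF-A is the main growth signal of blood vessel endothelium, whereas VEGF-B is tied to lipid uptake and coronary vessels. Progranulin, the product of Grn, is both a secreted factor and a lysosomal protein, and the receptor encoded by Igf2r also carries mannose 6-phosphate-tagged enzymes to the lysosome.

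After filtering, 2279 control and 2016 AdipoΔ/Δ cells were kept, with medians of 3678 and 3942 unique molecular identifiers (UMIs, 1 per counted transcript). Clusters built without the 9 genes and the related genes listed below fell into 16 classes. A class was named "-like" from its marker genes. T cell-like cells pooled 3 clusters, 1 of them with Arg1, Gata3 and Il2ra beside T cell genes among its leading genes. At a higher resolution, with more principal components or without integration, a separate cluster with Arg1 and Gata3 was named as type 2 innate lymphocyte-like. Macrophage-like cells made up 6.49% of control and 28.0% of AdipoΔ/Δ cells under the 10% mitochondrial limit used here. The 2% limit of the study kept 82.1% of control but 7.19% of AdipoΔ/Δ macrophage-like cells without subset. In the resident, matrix and lipid-associated classes described below it kept 15.5%, 44.9% and 61.5% against 12.0%, 37.9% and 32.3%. Of neutrophil-like cells it kept 54.8% and 81.3%. Class shares, and the all-cell levels, UMI shares and weightings built on them, therefore depend on the limit. Lipid-associated macrophage-like cells, marked by Trem2, Gpnmb and Spp1, numbered 13 and 96. These 13 control cells were shallow, with a median of 1348 UMIs against 11750.5 in the AdipoΔ/Δ library, so their levels rest on 30716 UMIs in all. The 4 barcodes that the libraries shared were kept. Haemoglobin and other erythroid genes summed to 11741 UMIs in the control and 101 in the AdipoΔ/Δ library, and the 7 endothelial markers to 20 and 33 UMIs. Their part in the results was not tested, although a denominator without haemoglobin genes moved none of the 17 ratios recomputed with it outside its interval. Levels are given as UMIs per 1000000 UMIs of a class (CPM) and are compared between classes and libraries, not between genes, since detection by 3′ tags differs between genes.

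Macrophage-like classes held most of the Igf1 and Pdgfc, neutrophil-like cells the Osm, and monocyte-like and NK cell-like cells most of the control Pdgfb. Of the 9 genes with at least 20 UMIs in the AdipoΔ/Δ library, 5 had their highest level in a macrophage-like class (Igf1, Pdgfc, Vegfb, Hbegf and Grn), against 16.4% of 11148 genes with as many UMIs. In the control library this held for 3 of 7 genes (Igf1, Vegfb and Grn), against 27.1% of 10813 genes. Vegfb rested there on 1 UMI.

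**Figure D1:**
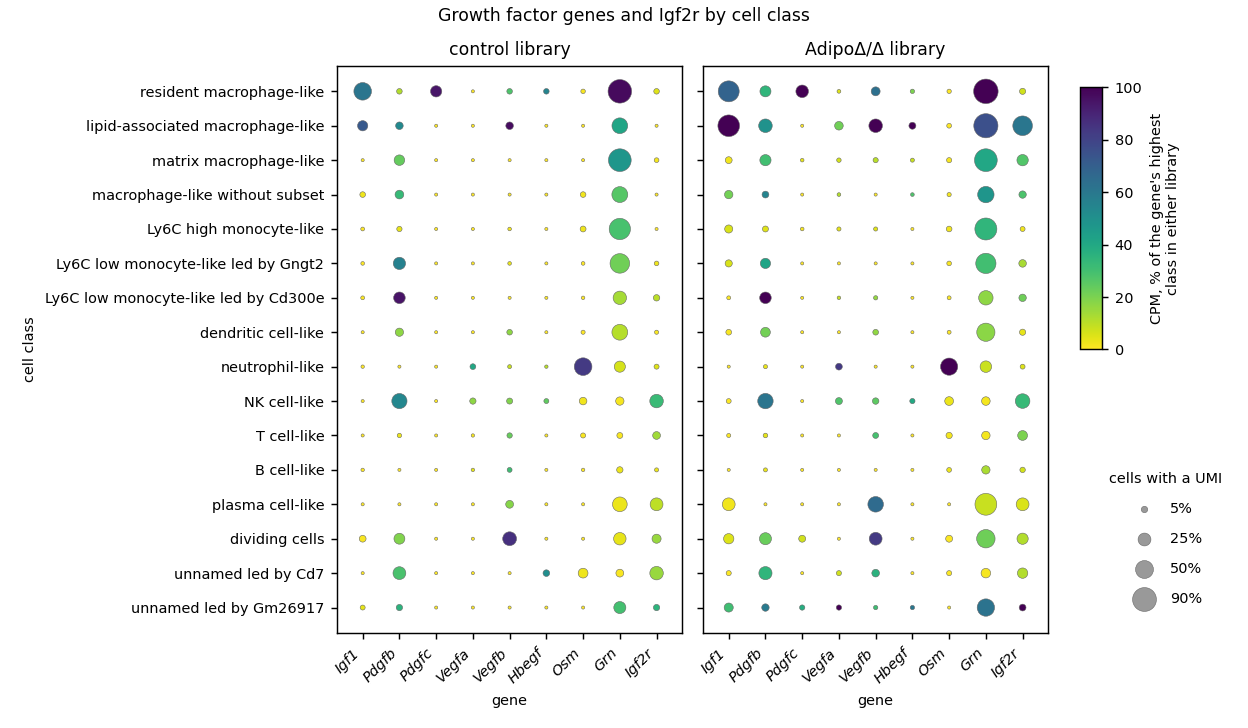
Level and detection of the 9 genes (horizontal axis) in the 16 cell classes (vertical axis) of the control and AdipoΔ/Δ libraries. Colour is the CPM as a percentage of the gene's highest class in either library and point size is the share of cells with a UMI; Osm was highest in neutrophil-like cells, Pdgfc in resident macrophage-like cells, and Grn was found in every class.

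Igf1 (chr10:87858265-87937042, plus strand, GRCm38), the main IGF ligand after birth, was carried almost entirely by 2 macrophage classes. Resident macrophage-like cells, marked by Mrc1, Folr2 and Cd163, held 70 Igf1 UMIs in the control library, or 330.4 CPM (95% Poisson interval 258 to 417), and 330 in the AdipoΔ/Δ library, or 370.2 CPM (331 to 412). The ratio within this class was 1.12 (0.864 to 1.47), so at this depth its Igf1 level was not separated between the libraries. Lipid-associated macrophage-like cells held 659 UMIs in the AdipoΔ/Δ library, or 540.4 CPM (499.9 to 583), above resident macrophage-like cells of the same library, with no overlap of the intervals. In the control library this class had 12 UMIs in 2 of its 13 cells, or 391 CPM (202 to 682). The ratio of 1.38 (0.786 to 2.69) for the lipid-associated cells became 2.76 without the single cell richest in Igf1 in each library, because 7 of the 12 control UMIs lay in 1 cell. Which of the 2 classes was highest in the control library was not settled, since their intervals overlapped and resident cells came first without the richest cells or without integration.

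Most AdipoΔ/Δ cells of both classes had at least 1 Igf1 UMI. The share was 74.0% of lipid-associated macrophage-like cells (71 of 96) and 69.2% of resident macrophage-like cells (92 of 133), at medians of 11750.5 and 5884 UMIs. In B cell-like cells, which should lack Igf1, it was 1 of 262 control cells (0.382%) and 0 of 93 AdipoΔ/Δ cells, which allows up to 3.23%, at medians of 1803 and 2090 UMIs. After each cell was thinned to 1000 UMIs the shares were 30.9% and 34.4%, and the order of the 2 macrophage classes turned, with overlapping intervals (21.7 to 41.2% and 26.1 to 43.4%). In control resident macrophage-like cells 48.3% had an Igf1 UMI before thinning and 21.8% after.

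The class that held most Igf1 UMIs differed between the libraries. Resident macrophage-like cells held 73.7% of the 95 control Igf1 UMIs (63.7 to 82.2%) and 29.1% of the 1133 AdipoΔ/Δ UMIs (26.5 to 31.9%). Lipid-associated macrophage-like cells held 12.6% and 58.2%, although they were 0.570% and 4.76% of the cells. Over all cells Igf1 was 8.83 CPM in the control and 100.1 CPM in the AdipoΔ/Δ library, 11.3-fold (9.19 to 14.1). With the AdipoΔ/Δ levels weighted to the class shares of the control library, the AdipoΔ/Δ value was 23.3 CPM, and with the control levels weighted to the AdipoΔ/Δ class shares it was 69.3 CPM. The 69.3 CPM value is loosely set, since lipid-associated cells enter it with 10.8% of the AdipoΔ/Δ UMIs. Their control level rested on 12 Igf1 UMIs in 2 of 13 cells (interval 202 to 682 CPM). Matrix macrophage-like cells, marked by Ecm1, Fcrls and Retnla, held 0 of 276224 control UMIs and 16 in the AdipoΔ/Δ library (11.4 CPM), which did not separate the libraries (lower bound of the ratio 0.757). In both libraries their Igf1 interval lay below those of the resident and lipid-associated cells.

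Outside macrophage-like cells, Igf1 was highest in Ly6C high monocyte-like cells of the named AdipoΔ/Δ classes, with 40 UMIs (32.9 CPM, 23.5 to 44.7) against 5 in the control library (1.92 CPM). The ratio was 17.1 (6.77 to 55.7), while 3.85% of the 8209 genes measured in this class were past 2-fold higher. Only 15 of 166 AdipoΔ/Δ cells carried these UMIs and 19 of the 40 lay in 1 cell. The ratio was 22.8 without the richest cell, 7.90 without the 5% of cells with most UMIs, and 4.74 when the libraries were merged without integration. Ly6C low monocyte-like cells had 19 UMIs against 3, with 17 against 1 in those led by Gngt2 and 2 against 2 in those led by Cd300e. The Gngt2-led cells among them (32.0 CPM) and dividing cells (27.9 CPM) overlapped the Ly6C high level in the AdipoΔ/Δ library.

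**Figure D2:**
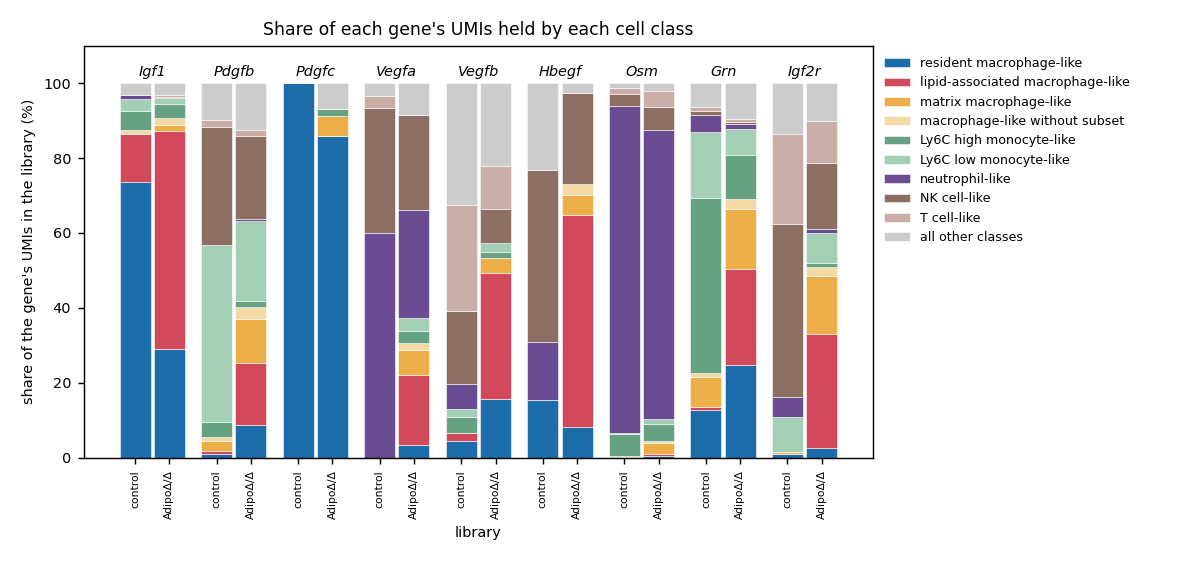
Share of each gene's UMIs (vertical axis, %) held by the cell classes in the control and AdipoΔ/Δ libraries (horizontal axis, a pair of bars per gene). The Igf1 bar went from 73.7% resident macrophage-like in the control to 58.2% lipid-associated macrophage-like in the AdipoΔ/Δ library, while Osm stayed mostly in neutrophil-like cells (87.1% and 77.2%).

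Pdgfc (chr3:81036416-81214040, plus strand), a ligand of PDGFRα, the receptor that marks adipocyte precursors, was found almost only in resident macrophage-like cells. All 11 control UMIs lay in this class, 1 in each of 11 cells (51.9 CPM, 25.9 to 92.9). In the AdipoΔ/Δ library 49 of 57 UMIs did (55.0 CPM, 40.7 to 72.7). The class levels did not differ beyond counting error (ratio 1.06, 0.543 to 2.26), and Pdgfc UMIs were found in 19.0% and 24.1% of its cells. No Pdgfc UMI was seen in B cell-like cells of either library, which allows up to 1.15% and 3.23% of those cells. Over all cells the level was 1.02 and 5.04 CPM, and with control levels at the AdipoΔ/Δ class shares it was 4.09 CPM. Resident macrophage-like cells with Pdgfc had Igf1 about as often as the class as a whole. In the AdipoΔ/Δ library 24 of the 32 cells with Pdgfc (75.0%) also had Igf1, against 69.2% of the class. In the control library 6 of 11 did (54.5%), against 48.3%.

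Levels in resident macrophage-like cells depended on the limit set on mitochondrial reads. Their median mitochondrial share was 4.15% in the control and 4.27% in the AdipoΔ/Δ library, and the 2% limit of the study left 9 of 58 and 16 of 133 cells. Under that limit the control class kept 1 Igf1 UMI and no Pdgfc UMI, and the Igf1 ratio was 8.02.

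Pdgfb (chr15:79995874-80014977, minus strand), the ligand that recruits mural cells to vessels, was spread over several classes. The Ly6C low monocyte-like cells led by Cd300e had the highest level in both libraries, overlapped only by 3 shallow control and 2 shallow AdipoΔ/Δ classes, with 79 UMIs (116 CPM, 92.2 to 145) in the control and 68 UMIs (123 CPM, 95.3 to 156) in the AdipoΔ/Δ library. NK cell-like cells had 94 UMIs (66.1 CPM, 53.4 to 80.8) and 99 UMIs (75.2 CPM, 61.1 to 91.5), below the Cd300e-led cells with no overlap of the intervals. The share of cells with a Pdgfb UMI had the other order, 35.7% and 36.8% of NK cell-like and 20.3% and 20.1% of Cd300e-led cells, at median depths of 6439 and 6486 against 2342 and 1964 UMIs. After thinning it was 6.76% and 8.67% against 8.46% and 9.44%, with overlapping intervals, and in B cell-like cells 0 of 262 and 1 of 93 cells had a UMI. The Ly6C low monocyte-like cells led by Gngt2 had 69.4 CPM in the control and 50.9 CPM in the AdipoΔ/Δ library, where 11 of their 27 UMIs lay in 1 cell.

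Within these 3 classes the Pdgfb levels of the libraries did not differ beyond counting error, with ratios of 1.05 (0.750 to 1.48) in the Cd300e-led, 0.733 (0.448 to 1.17) in the Gngt2-led and 1.14 (0.849 to 1.53) in the NK cell-like cells. Ly6C high monocyte-like cells had 4.60 and 5.75 CPM. Ly6C low monocyte-like cells of both kinds held 47.3% of the 298 control UMIs and 21.4% of the 443 AdipoΔ/Δ UMIs, and macrophage-like cells 5.37% and 40.2%. Of the UMIs of all genes, the Ly6C low cells held 14.6% and 9.59%, and the macrophage-like cells 5.52% and 32.9%. Resident macrophage-like cells had 3 Pdgfb UMIs against 38, a ratio of 3.01 (0.955 to 15.2) where 11.5% of the 5911 genes measured in the class were past 2-fold higher. Platelets carry PDGF-B, and the 6 platelet markers summed to 39 control and 100 AdipoΔ/Δ UMIs, of which 1 and 2 lay in the Cd300e-led cells and 15 and 10 in the NK cell-like cells. Another 49 of the AdipoΔ/Δ platelet UMIs lay in matrix macrophage-like cells, and the part of platelets in the Pdgfb levels was not tested.

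**Figure D3:**
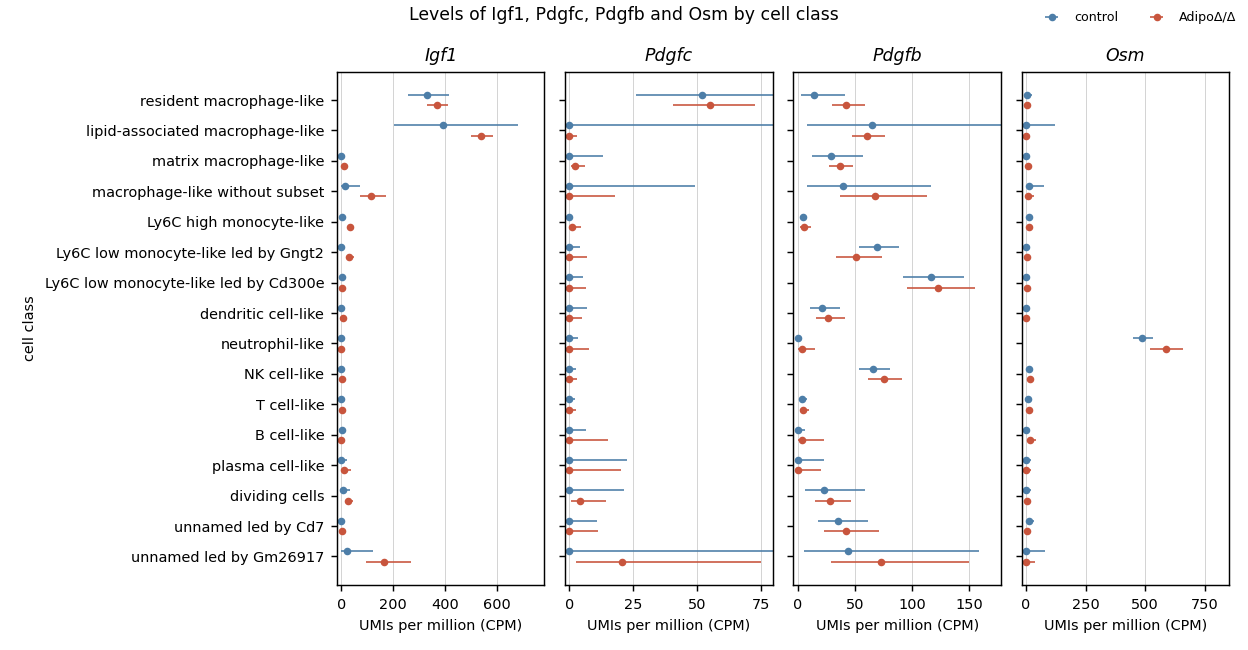
Levels of Igf1, Pdgfc, Pdgfb and Osm (horizontal axes, CPM) by cell class in the control and AdipoΔ/Δ libraries, with 95% Poisson intervals for counting error; some intervals run past the axis. Igf1 lay at 330.4 and 370.2 CPM in resident and at 391 and 540.4 CPM in lipid-associated macrophage-like cells, the control value of the latter with a wide interval.

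Vegfa (chr17:46016993-46032369, minus strand) was sparse, with 30 control and 59 AdipoΔ/Δ UMIs. In the control library 18 lay in neutrophil-like and 10 in NK cell-like cells, and none in 593780 UMIs of macrophage-like cells. The AdipoΔ/Δ UMIs were 17 in neutrophil-like, 15 in NK cell-like and 18 in macrophage-like cells, 11 of these in lipid-associated macrophage-like cells. The macrophage-like level of 4.83 CPM lay under the 5.05 CPM that 3 control counts would give. The libraries were thus not separated there (lower bound of the ratio 0.701). The neutrophil-like level was 16.9 CPM (10.0 to 26.7) in the control and 34.7 CPM (20.2 to 55.5) in the AdipoΔ/Δ library. Its ratio of 2.05 (0.995 to 4.22) was in a class where 7.47% of 4714 genes were past 2-fold higher, and 7 of the 17 AdipoΔ/Δ UMIs lay in 1 cell. Without the richest cell of each library the ratio was 1.57, and under the 2% mitochondrial limit it was 1.31. Vegfa UMIs were found in 3.82% and 5.85% of neutrophil-like cells, against 0.382% and 0% (up to 3.23%) of B cell-like cells. In NK cell-like cells the ratio was 1.62 (0.681 to 4.03), and in lipid-associated macrophage-like cells the AdipoΔ/Δ level of 9.02 CPM lay under the 97.7 CPM that 3 counts would give in the control cells, so no difference could be seen there.

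Vegfb (chr19:6982473-6987651, minus strand) had 46 and 122 UMIs. Lipid-associated macrophage-like cells held 41 of the AdipoΔ/Δ UMIs (33.6 CPM, 24.1 to 45.6) in 28.1% of cells, and dividing cells 14 (27.9 CPM, 15.2 to 46.7). The control UMIs were scattered, with 13 in T cell-like, 9 in NK cell-like and 6 in B cell-like cells and 1 in lipid-associated macrophage-like cells. The intervals of 15 other control classes overlapped the highest, so no class could be ranked first in that library. After thinning, 5.32% of AdipoΔ/Δ lipid-associated macrophage-like cells had a Vegfb UMI (1.75 to 12.0%). Of thinned B cell-like cells, 1 of 211 in the control (0.474%) and 0 of 77 in the AdipoΔ/Δ library had one. The latter allows up to 4.68% by the exact interval. Before thinning it was 2.29% of control and 0 of 93 AdipoΔ/Δ B cell-like cells.

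Hbegf, the heparin-binding ligand of the EGF receptor, had the fewest UMIs of the 9 genes over both libraries, with 13 control and 37 AdipoΔ/Δ UMIs. NK cell-like cells held 6 and 9 of them. In the AdipoΔ/Δ library 21 lay in 6 of 96 lipid-associated macrophage-like cells (17.2 CPM, 10.7 to 26.3), 6 in 1 cell, and after thinning none of 94 cells had one, which allows up to 3.85% by the exact interval. Under the 2% mitochondrial limit 2 of these UMIs were left, at 4.71 CPM. B cell-like cells had none in either library.

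Osm (chr11:4236420-4241026, plus strand), a gp130 cytokine, belonged to neutrophil-like cells, marked by S100a8, S100a9 and Cxcr2. They held 520 of 597 control UMIs (87.1%, 84.1 to 89.7%) and 288 of 373 AdipoΔ/Δ UMIs (77.2%, 72.6 to 81.4%), while being 13.8% and 8.48% of the cells. The level was 488 CPM (447 to 532) in the control and 588 CPM (522 to 659) in the AdipoΔ/Δ library, and the next named class had 13.8 CPM (Ly6C high monocyte-like) in the control and 17.5 CPM (NK cell-like) in the AdipoΔ/Δ library. The ratio within neutrophil-like cells was 1.20 (1.04 to 1.39), where the median ratio of all genes measured in the class was 1.19. Over all cells Osm was lower in the AdipoΔ/Δ library, 33.0 against 55.5 CPM (ratio 0.594, 0.52 to 0.677), and with the AdipoΔ/Δ levels at control class shares it was 67.6 CPM.

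Osm UMIs were found in 48.7% of control and 46.2% of AdipoΔ/Δ neutrophil-like cells, in 30.4% and 32.3% after thinning, and in 1 of 262 and 2 of 93 B cell-like cells. The 12 immediate early and stress genes, which respond within minutes to cell handling, also had their highest sum in neutrophil-like cells, with 14130 CPM in the control and 18379 CPM in the AdipoΔ/Δ library, against ranges of 342 to 5383 and 779 to 3640 CPM in the other classes. Fos, Junb, Egr1, Ier2, Ier3, Dusp1 and Zfp36 were each highest there in both libraries, whereas Fosb, Jun, Atf3, Hspa1a and Hspa1b were highest in other classes. Osm is itself inducible, and whether its level followed handling was not tested.

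Grn (chr11:102430315-102437048, plus strand) was detected in all 16 classes of both libraries. Resident macrophage-like cells were highest, with 228 UMIs (1076 CPM, 941 to 1225) in the control and 986 UMIs (1106 CPM, 1038 to 1177) in the AdipoΔ/Δ library, and no other class overlapped them. Under the 2% mitochondrial limit the control level of the 9 cells left was 423 CPM, and matrix macrophage-like cells were highest in the control and lipid-associated macrophage-like cells in the AdipoΔ/Δ library. In the control library matrix macrophage-like (525 CPM), lipid-associated macrophage-like (456 CPM) and Ly6C high monocyte-like cells (323 CPM) came next among named subsets. In the AdipoΔ/Δ library lipid-associated macrophage-like cells had 836 CPM (785 to 889), a ratio of 1.83 (1.09 to 3.37) against 14 control UMIs, in a class whose median gene had a ratio of 1.33. The ratio was 1.03 (0.889 to 1.19) in resident and 0.854 (0.712 to 1.03) in matrix macrophage-like cells, and 1.19 (1.06 to 1.34) in Ly6C high monocyte-like cells, whose median gene had 1.07.

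Grn UMIs were found in 87.9% of control and 95.5% of AdipoΔ/Δ resident macrophage-like cells. B cell-like cells gave 4.96% and 9.68%, with 31.4 and 141 CPM, a ratio of 4.49 (2.47 to 8.45) where 5.71% of 4170 genes were past 2-fold higher. Of the 34 Grn UMIs in AdipoΔ/Δ B cell-like cells, 23 lay in 1 cell. In T cell-like cells, at medians of 3477 and 3597 UMIs, it was 11.4 and 19.2 CPM. The summed macrophage markers went from 6117 to 30633 UMIs between the libraries, and the part of free RNA in the low Grn levels was not tested. Ly6C high monocyte-like cells held 46.8% of the control Grn UMIs and macrophage-like cells 22.7%, whereas in the AdipoΔ/Δ library they held 11.8% and 69.1%. The level over all cells was 167 CPM in the control and 351 CPM in the AdipoΔ/Δ library, and 278 CPM with the control levels at the AdipoΔ/Δ class shares.

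Igf2r (chr17:12682406-12769664, minus strand, overlapped on the other strand by Airn) had the largest ratio of the 7 genes measured over all macrophage-like cells. These cells held 3 Igf2r UMIs in the control, or 5.05 CPM, and 233 in the AdipoΔ/Δ library, or 62.5 CPM (54.8 to 71.1). The ratio was 12.4 (4.18 to 60.5), with 8.65% of 9027 genes past 2-fold higher in the same cells. This pooled ratio does not tell class shares from levels. Lipid-associated cells gave 30716 of 593780 control and 1219516 of 3725545 AdipoΔ/Δ UMIs of all genes in macrophage-like cells. Lipid-associated macrophage-like cells held 139 of the 233 Igf2r UMIs (114 CPM, 95.8 to 135), in 58 of 96 cells. Matrix macrophage-like cells held 71 (50.5 CPM, 39.4 to 63.7) against 1 control UMI in 49 cells. The ratio in matrix macrophage-like cells was 13.9 (2.42 to 558), and 11.4% of 6638 genes were past 2-fold higher. In the 13 control lipid-associated macrophage-like cells 0 UMIs were counted, which allows up to 120.1 CPM, so no difference could be seen in that class alone (lower bound of the ratio 0.937). Resident macrophage-like cells had 9.44 and 13.5 CPM. In the AdipoΔ/Δ library Igf2r and Igf1 were thus high together in lipid-associated cells and apart in the resident and matrix classes. The control library had too few Igf2r UMIs in these classes to show such a pattern.

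NK cell-like cells carried Igf2r at levels that did not differ beyond counting error, 60.4 CPM (48.3 to 74.6) and 60.7 CPM (48.2 to 75.6), a ratio of 1.01 (0.732 to 1.38). They held 46.2% of the 186 control UMIs and 17.5% of the 457 AdipoΔ/Δ UMIs. T cell-like cells had 27.0 and 36.9 CPM. In the Ly6C low monocyte-like cells of both kinds the level was 10.8 and 33.2 CPM (ratio 3.07, 1.68 to 5.82), where 4.60% of 7492 genes were past 2-fold higher, and the ratio was 1.99 as a mean of CPM per cell. Igf2r UMIs were found in 60.4% of AdipoΔ/Δ lipid-associated macrophage-like and 32.8% of NK cell-like cells before thinning and in 5.32% and 6.94% after it, and in 1.15% and 3.23% of B cell-like cells. A shallow unnamed class led by Gm26917 had the highest level in both libraries, from 3 control UMIs and from 18 AdipoΔ/Δ UMIs in 4 cells.

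**Figure D4:**
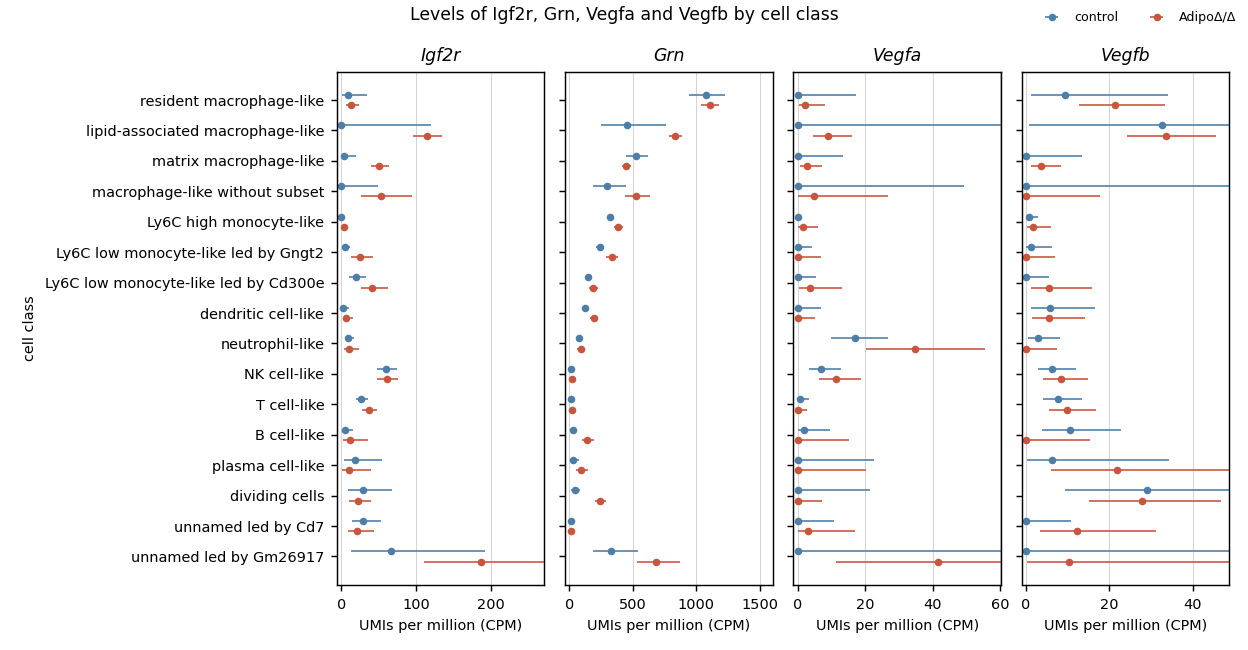
Levels of Igf2r, Grn, Vegfa and Vegfb (horizontal axes, CPM) by cell class in the control and AdipoΔ/Δ libraries, with 95% Poisson intervals for counting error; some intervals run past the axis. Igf2r lay at 60.4 and 60.7 CPM in NK cell-like cells but at 3.62 and 50.5 CPM in matrix macrophage-like cells, while Grn was highest in resident macrophage-like cells of both libraries.

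Progranulin is in part a lysosomal protein, and the receptor encoded by Igf2r carries enzymes to the lysosome. The 250 bases before RefSeq start sites (GRCm38.p6) were therefore searched on both strands for TCACGTGA and TCATGTGA. These letters are bound by the MiT/TFE factors of lysosomal genes. Start windows were at hand for 6 of the 9 genes. Igf2r held 3 matches, beginning 92, 49 and 8 bases before the start, and Grn (211 bases) and Vegfb (70 bases) held 1 each. Igf1, Pdgfc and both Vegfa windows held none of these letters. The Igf1 window (chr10:87860861-87861110) and 1 Vegfa window (chr17:46025164-46025413) lay inside the GENCODE spans given above. Of 32851 windows of the same length, 0.785% held TCACGTGA, 0.846% held TCATGTGA and 1.61% held either. The windows with a match are shown 5′ to 3′ on the strand of the gene, with the matching letters in capitals, for Igf2r at chr17:12769707-12769956 (minus strand), Grn at chr11:102430257-102430506 (plus strand; its RefSeq start lies inside the GENCODE span given above) and Vegfb at chr19:6987652-6987901 (minus strand). A match is a description of the letters only.
Igf2r: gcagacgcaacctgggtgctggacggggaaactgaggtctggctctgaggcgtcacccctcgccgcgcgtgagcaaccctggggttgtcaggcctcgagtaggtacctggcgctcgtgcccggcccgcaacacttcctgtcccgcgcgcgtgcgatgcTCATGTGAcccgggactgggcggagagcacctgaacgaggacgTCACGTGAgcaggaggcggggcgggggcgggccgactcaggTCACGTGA
Grn: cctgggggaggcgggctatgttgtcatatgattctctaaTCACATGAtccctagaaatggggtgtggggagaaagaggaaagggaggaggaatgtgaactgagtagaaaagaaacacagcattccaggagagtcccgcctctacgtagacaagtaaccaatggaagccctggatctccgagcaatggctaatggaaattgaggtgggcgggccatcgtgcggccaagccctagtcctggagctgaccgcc
Vegfb: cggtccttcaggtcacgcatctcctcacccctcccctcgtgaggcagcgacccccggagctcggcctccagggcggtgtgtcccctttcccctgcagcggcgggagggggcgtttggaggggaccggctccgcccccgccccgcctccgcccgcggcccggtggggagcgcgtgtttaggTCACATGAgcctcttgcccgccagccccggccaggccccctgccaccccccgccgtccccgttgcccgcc

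Across the 16 classes, 45 pairs of a gene and a class had at least 20 UMIs in the libraries together, and 12 were past 2-fold higher in the AdipoΔ/Δ library, with none past 2-fold lower. For all genes 7.48% of such pairs were past 2-fold higher and 3.40% past 2-fold lower. The share past 2-fold higher ran from 2.99% in NK cell-like cells to 19.6% in macrophage-like cells without subset. It was 17.4% in dividing, 12.2% in Gm26917-led and 11.9% in plasma cell-like cells, so the pooled 7.48% is low for these classes. The 12 pairs were Igf1 in Ly6C high monocyte-like cells and macrophage-like cells without subset, Igf2r in matrix macrophage-like, Cd300e-led Ly6C low monocyte-like and Gm26917-led cells, Pdgfb and Vegfb in resident macrophage-like cells, Vegfa in neutrophil-like cells, and Grn in B cell-like, plasma cell-like, dividing and Gm26917-led cells. In 9 of the 45 pairs the control held 3 UMIs or fewer. Of the 12 called pairs, this held for Igf1 in macrophage-like cells without subset and for Igf2r in matrix macrophage-like and Gm26917-led cells. It also held for Pdgfb and Vegfb in resident macrophage-like cells. Counting intervals included equal levels for Pdgfb (0.955 to 15.2) and Vegfb (0.545 to 20.0) in resident macrophage-like cells. So did those of Igf2r in Gm26917-led (0.829 to 15.1) and Vegfa in neutrophil-like cells (0.995 to 4.22). Over all cells 6 of the 9 genes were past 2-fold higher (Igf1, Igf2r, Pdgfc, Vegfb, Hbegf and Grn), against 7.81% of 12080 genes, and none was past 2-fold lower, against 2.36%. A level over all cells does not by itself tell more cells of a class from more RNA per cell, for which the levels within classes and those weighted to the class shares of the other library are given above.

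**Figure D5:**
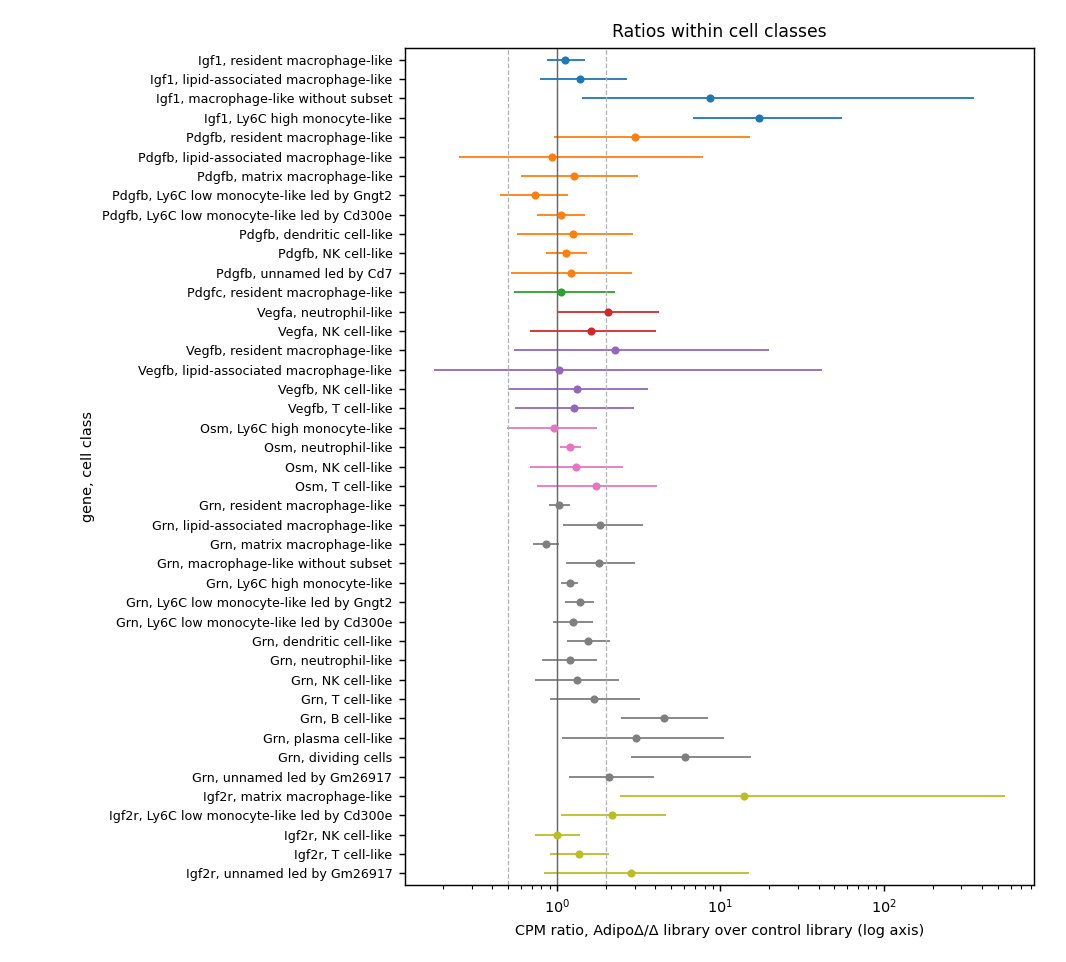
Ratio of CPM in the AdipoΔ/Δ over the control library (horizontal log axis) for each gene and class (vertical axis) with at least 20 UMIs in the libraries together and at least 1 in the control; bars are conditional binomial 95% intervals for counting error, the solid line marks equal levels and the broken lines 2-fold. Ratios within the main source classes of Pdgfc (1.06), Osm (1.20) and resident Grn (1.03) lay near 1, and Igf1 in Ly6C high monocyte-like cells lay at 17.1.

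Related genes were counted from lists. Of 16 other ligands of the same families, 4 had 20 UMIs in the libraries together. Pdgfa, a PDGFRα ligand, had 13 control and 116 AdipoΔ/Δ UMIs, 44 of the latter in lipid-associated macrophage-like cells (36.1 CPM). Areg, an EGF receptor ligand linked to tissue repair, had 0 and 47 UMIs, but 42 of the 47 lay in 2 matrix macrophage-like cells. Vegfc, the lymphatic VEGF, had 17 and 16 UMIs in NK cell-like cells (11.9 and 12.1 CPM), and Nrg1 was lower in the AdipoΔ/Δ library with 24 and 8 UMIs. Igf2 had 0 and 1 UMIs, and Pdgfd and Ereg had none.

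Among 10 other growth factors, Hgf lay mainly in Cd300e-led Ly6C low monocyte-like cells (28.0 and 30.7 CPM) and Angpt1, which steadies vessels, in NK cell-like cells (17.6 and 14.4 CPM). Angpt2, which loosens them, had 15 of 17 AdipoΔ/Δ UMIs in lipid-associated macrophage-like cells. All 59 control UMIs of Ptn lay in T cell-like cells, with none in the AdipoΔ/Δ library.

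Of 17 receptors and coreceptors, 8 had 20 UMIs in the control and 9 in the AdipoΔ/Δ library. Those of the PDGFs, VEGFR2 and the oncostatin M receptor were sparse. Pdgfra had 0 and 5 UMIs, Pdgfrb 4 and 3, Kdr 1 and 7, and Osmr 1 and 2. Igf1r was highest in neutrophil-like cells (279 CPM in the control and 439 CPM in the AdipoΔ/Δ library), which held 73.0% and 54.0% of its UMIs. Lifr was highest among named classes in resident macrophage-like cells (293 and 205 CPM). Over all cells, 3 of the 10 receptor genes with 20 UMIs in the libraries together were past 2-fold higher (Nrp2, Egfr and Lifr). None was past 2-fold lower, and the shares of all genes were 7.81% and 2.36%. Nrp2, a VEGF coreceptor, had 70 and 545 UMIs. All 3 control UMIs of Egfr and 76.2% of its AdipoΔ/Δ UMIs lay in resident macrophage-like cells. Flt1, a receptor of VEGF-A and VEGF-B, was carried by monocyte-like cells. Ly6C high monocyte-like cells had 13.8 and 27.9 CPM and held 37.5% and 44.2% of its UMIs in the control and AdipoΔ/Δ libraries, and the Cd300e-led cells had 47.2 and 25.3 CPM.

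Of 22 binding proteins, proteases and partners, 15 had 20 UMIs, of which 3 were past 2-fold higher (Igfbp5, Igfbp7 and Plau) and 1 lower (Slpi), against 7.81% and 2.36% of all genes, with a median log2 ratio of 0.26, against 0.13 over all genes. Psap, the partner that carries progranulin to the lysosome, was highest in lipid-associated macrophage-like cells (5209 and 5560 CPM). Plau, the urokinase that frees growth factors from matrix, had 111 UMIs in these cells of the AdipoΔ/Δ library (91.0 CPM) and none in the 13 control cells, where 3 counts would give 97.7 CPM, so no difference could be seen. Igfbp4, which binds IGF1, was highest in resident macrophage-like cells (571 and 472 CPM). T cell-like cells held 73.6% of its control and 29.2% of its AdipoΔ/Δ UMIs, and AdipoΔ/Δ lipid-associated macrophage-like cells had 16.4 CPM. Slpi, which shields progranulin from cleavage, lay in neutrophil-like cells, which held 81.2% and 88.1% of its UMIs.

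The genes whose pattern was most like that of each of the 9 genes were sought over 36 groups, each cluster in each library, by Pearson's r of log2(CPM + 10) among 9452 genes. Groups share a library and cells of a cluster share a depth, so r is a description. Igf1 was followed by Ms4a7 (r = 0.94), Cttnbp2nl (0.94) and C3ar1 (0.93), Pdgfc by Cd209f (0.92), Ednrb (0.90) and Ccl8 (0.90), and Osm by Nlrp12 (0.94), Cxcr2 (0.94) and Hdc (0.93). Grn was followed by Sdc3 (0.95), Cebpa (0.94) and Tmem106a (0.94), and Pdgfb by Itgax (0.85), M6pr (0.84) and Efhd2 (0.82). Vegfa was followed by Steap4 (0.84), Dhrs9 (0.82) and Tbc1d23 (0.78), Hbegf by Spp1 (0.74), Slc37a2 (0.72) and Atp6v0d2 (0.69), Igf2r by Tubgcp4 (0.72), Ints6 (0.72) and Scfd2 (0.70), and Vegfb by Gemin6 (0.70), Ndufa12 (0.69) and Golt1b (0.69).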

How the data were processed

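Single-cell RNA was measured with 10x 3′ chemistry in 2 libraries of sorted CD45+ DAPI- BAT cells. The deposited matrices hold whole-number UMI counts, which the authors made with Cell Ranger 4.0.0 on mm10, per the submitters' processing notes. The libraries held 2597 control and 2381 AdipoΔ/Δ barcodes with 11327187 and 12028844 UMIs. Groups were taken from the sample labels.

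Barcodes with fewer than 200 genes or with over 10% of UMIs from mitochondrial genes were dropped, which left 87.8% of control and 84.7% of AdipoΔ/Δ barcodes. The 2% limit of the study passed 51.4% and 37.7% of barcodes and was used as an alternative. Cells were normalised with SCTransform, integrated by anchors and clustered from 20 principal components at resolution 1.0 with seed 1 (R 4.3.3, Seurat 5.3.0, sctransform 0.4.2). The 25 listed genes among 2000 integration features were dropped. Clusters were named from marker lists, which needed 3 markers detected in at least 10% of cells, a score of at least 0.5 and an own marker among the top 10 genes by fold. These thresholds were set after seeing the data, and differences from classes of the study may come from the rebuilt names. No doublet caller was run, and leaving out the top 5% of cells by UMIs stands in for one.

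CPM of summed UMIs were given exact Poisson intervals, shares exact Clopper-Pearson intervals and ratios conditional binomial intervals, all at the 95% level (Python 3.11.15, SciPy 1.17.1). A ratio was called past 2-fold with at least 20 UMIs in both libraries together, with a count of 0 set to a floor of 3 counts. Shares were repeated after each cell was thinned to 1000 UMIs, with shallower cells left out. The limit allowed by a count of 0 is 3 counts of the total. The scripts were tested on simulated counts with known ratios. The genes and lists were chosen with earlier results of these data known. All 9 genes are named, with the genes highest in a class from each list and the 3 genes most like each of the 9, and other listed genes with values were picked after their values were seen.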

Additional observations from a re-analysis of the deposited data

How the results depend on the processing

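Levels, ratios, UMI shares and the order of classes were recomputed under 11 alternatives. Of the recomputed ratios 174 stayed inside the counting interval of the reported value and 11 did not. Under the 2% mitochondrial limit the ratio was 8.02 for Igf1 and 1.66 for Grn in resident macrophage-like cells, 1.52 for Osm in neutrophil-like cells and 0.731 for Igf2r in NK cell-like cells. This limit left 9 control and 16 AdipoΔ/Δ resident macrophage-like, 172 and 139 neutrophil-like, and 83 and 54 NK cell-like cells. Igf1 in resident macrophage-like cells had a ratio of 0.852 under a 5% limit. With the libraries merged without integration it was 0.805 for Igf1 and 0.836 for Grn in resident macrophage-like cells, 4.74 for Igf1 in Ly6C high monocyte-like cells and 1.08 for Grn in Ly6C low monocyte-like cells. Igf1 in lipid-associated macrophage-like cells had 2.76 without the cell richest in it, and Osm in neutrophil-like cells 1.04 as a mean of CPM per cell. In the control library 5 of the 9 genes kept their highest class under the 2% limit, the exceptions being Pdgfc, Vegfb, Hbegf and Grn. The cause was not tested. Of the levels 168 stayed inside and 30 left their interval, and of the UMI shares 138 and 23. Thinning moved 16 of 18 shares of cells with a UMI. No paired analysis was possible because each condition had 1 library and no test was made. Depth limits precision in shallow classes, where 3 counts in the control lipid-associated macrophage-like cells equal 97.7 CPM.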

Other observations

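Igf2r and Igf1 were found in the same AdipoΔ/Δ lipid-associated macrophage-like cells about as often as the class as a whole had Igf1. Of 58 cells with an Igf2r UMI, 46 (79.3%) also had an Igf1 UMI, against 74.0% of all 96 cells. Cells with Igf2r were deeper, with a median of 13748.5 UMIs against 7223 in cells without it, and the part of depth was not tested. All 6 cells of this class with an Hbegf UMI also had Igf2r, and their median depth was 22530.5 UMIs.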
